A study of Glycine max with 10 samples.

Results

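Floral induction in the soybean shoot apical meristem (SAM) was followed here through 2 of its transcription factor transcripts, both of which were lowest at the last time point of the study. They were the probe set GmaAffx.9006.2.S1_at, annotated by the study as Short Vegetative Phase (SVP), and GmaAffx.63049.1.S1_at, annotated as a squamosa promoter binding protein-like factor (SPL). These 2 of the 37593 soybean probe sets of the array were chosen by their lower levels at 6 SDs on these same arrays, so their levels are described and not tested. The arrays held RNA from microdissected SAMs of Glycine max cv. Bragg that had received 0 to 6 short days (SDs; sampled at 0, 1, 2, 4 and 6), with 2 biological replicates (n = 2) at each time point. All plants were grown for 10 days in a glasshouse under long days; the 0 SD plants were dissected then, whereas all others first went to a chamber at 24°C with light for 10 h per day. The dissected tissue was the dome of the SAM up to 4 SDs, and the new inflorescence meristem with the floral meristem beside it at 6 SDs. No array of chamber plants in long days was analysed here, so short days, the move and plant age cannot be told apart. As the tissue differed at 6 SDs, its part in any change at that time point cannot be told apart from that of time.

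In Arabidopsis, SVP is a MADS-box transcription factor that represses flowering, in part by keeping down the genes that integrate flowering signals, and its level in the apex drops when the plant is induced to flower. Its closest relative, AGAMOUS-LIKE 24 (AGL24), is by contrast a promoter of flowering. The SPL proteins share a DNA-binding domain named after the SQUAMOSA promoter, are in large part held back by the microRNA miR156 in young plants, and promote the change to the adult phase and flowering. AP1 and FRUITFUL, MADS-box factors of the forming flower and inflorescence, lie downstream of these pathways.

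The annotation of both probe sets came from protein similarity to Arabidopsis and did not settle which family member each one is. For the SVP probe set, the study listed the Arabidopsis locus AT4G24540, which is the locus of AGL24 and not of SVP itself. For the SPL probe set, it gave the name squamosa promoter binding protein-like 9 beside the locus AT5G50570, which is that of SPL13A. The names SVP and SPL are therefore used below only as the study's annotation. Neither probe set had an entry in the platform's gene table used here, and each was the only probe set with its cluster number, so no further probe set could be set against it.

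The values were log2 intensities, on which a difference of 1 is a 2-fold change. The 10 arrays had medians of 7.31 to 7.46 and replicate correlations of 0.976 to 0.996 over the probe sets. The lowest of each belonged to 6 SDs, where replicate 2 had an interquartile range of 3.60 against 3.94 to 4.02 in the other 9. Without that array, the change from 0 to 6 SDs was −0.94 for SVP and −1.25 for SPL, compared with −1.09 and −1.19 with it, and from 4 to 6 SDs it was −1.21 and −0.69, compared with −1.36 and −0.62.

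SVP read 6.75 and 6.83 at 0 SD (replicates 1 and 2), 7.65 and 7.79 at 1 SD, 7.75 and 7.22 at 2 SDs, 7.13 and 7.00 at 4 SDs, and 5.85 and 5.55 at 6 SDs. Both 1 SD arrays thus lay above both 0 SD arrays, and both 6 SD arrays lay below every other array. The mean was highest at 1 SD, at 7.72 ± 0.10 (standard deviation, n = 2), but the 1 and 2 SD arrays overlapped, so the day of the peak was not resolved between them. The order of the means from low to high was 6 SDs (5.70 ± 0.22), 0 SD (6.79 ± 0.06), 4 SDs (7.06 ± 0.09), 2 SDs (7.48 ± 0.37) and 1 SD. Of the neighbours in this order, 0 and 4 SDs differed by 0.27 ± 0.19 (standard error, SE) and 1 and 2 SDs by 0.24 ± 0.19, both less than 2 SEs. The spread of SVP at 2 SDs exceeded that at any other time point.

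SVP was higher at 1 SD before it was lower at 6 SDs. The step from 0 to 1 SD was an increase of 0.93 ± 0.19 (SE), or 1.90-fold. Of the 20366 probe sets bright enough to test, 2.06% had a larger increase over that step, and in 17.5% both 1 SD arrays lay above both 0 SD arrays. From 1 to 2 SDs the level changed by −0.24 and from 2 to 4 SDs by −0.42. The 4 SD mean then differed from the 0 SD mean by 0.27 ± 0.19, less than 2 SEs. The change from 4 to 6 SDs was −1.36 ± 0.19, or 2.57-fold lower, with no overlap between the arrays. This step held 67.4% of the fall from the 1 SD mean, against 11.7% for the step from 1 to 2 SDs and 20.9% for that from 2 to 4 SDs. Expressed per day, the change was −0.24 from 1 to 2 SDs, −0.21 from 2 to 4 SDs and −0.68 from 4 to 6 SDs, so the last step was also the steepest.

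The size of the SVP fall depended on the time point it was measured from. Against 0 SD, SVP at 6 SDs had decreased by 1.09 ± 0.19 on the log2 scale, or 2.13-fold, and against 1 SD by 2.02 ± 0.19, or 4.06-fold. Among the tested probe sets, 0.908% fell more from 0 to 6 SDs, 0.152% from 1 to 6 SDs and 0.226% from 4 to 6 SDs. The SVP probe set read at the 27.1 to 54.7 percentile of the soybean probe sets on its array, a rank of probe intensity and not of transcript number. It lay above the array median in 3 of 10 arrays, namely both 1 SD arrays and replicate 1 at 2 SDs, and so entered the set of tested probe sets only through the time points at which it was high. Fewer cells with a transcript and less transcript per cell cannot be told apart in RNA from pooled, microdissected meristems.

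**Figure D1:**
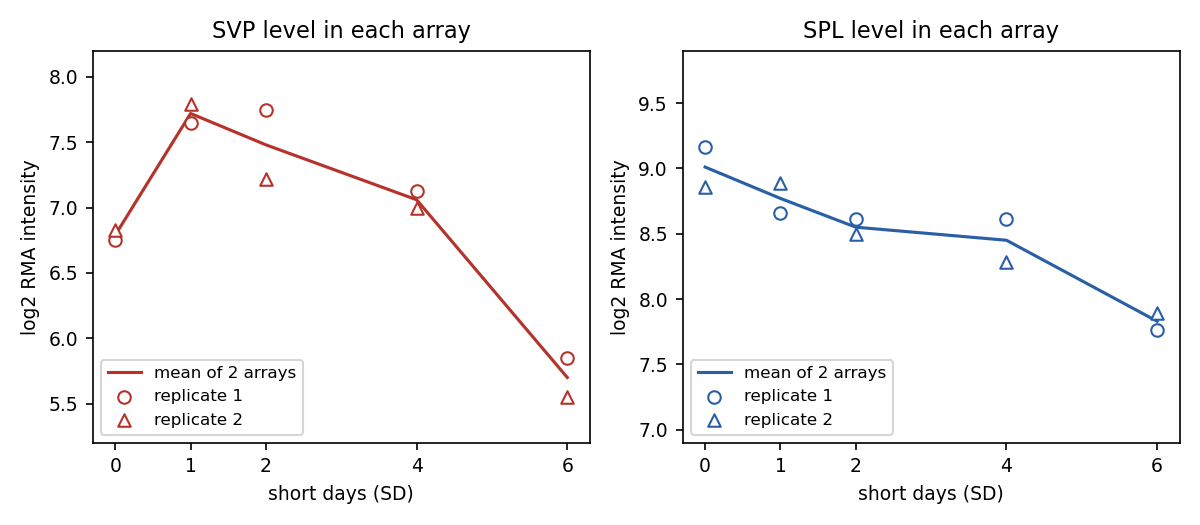
Log2 RMA intensity of SVP (left) and SPL (right) in each array against the number of short days, with circles for replicate 1, triangles for replicate 2 and a line through the means of 2 arrays. SVP is highest at 1 to 2 SDs and lowest at 6 SDs (5.85 and 5.55), whereas SPL is highest at 0 SD (9.16 and 8.86) and lowest at 6 SDs (7.76 and 7.89); the 2 vertical axes span the same range at different levels.

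SPL was at no later time point higher than at 0 SD by the means. It read 9.16 and 8.86 at 0 SD, 8.66 and 8.89 at 1 SD, 8.61 and 8.50 at 2 SDs, 8.61 and 8.28 at 4 SDs, and 7.76 and 7.89 at 6 SDs. Both 6 SD arrays were below every earlier array, while the arrays of 0 and 1 SD overlapped, as did those of 2 and 4 SDs. The means fell at each step, from 9.01 ± 0.21 (standard deviation, n = 2) at 0 SD through 8.77 ± 0.16, 8.55 ± 0.08 and 8.45 ± 0.23 to 7.83 ± 0.09 at 6 SDs. The peak day was therefore 0 SD by the means, with 1 SD not set apart from it (a difference of −0.24 ± 0.17, SE). The differences between neighbours in this order were below 2 SEs for every pair except 4 and 6 SDs. Means that fell at all 4 steps were found in 350 of the 20366 tested probe sets (1.72%), SPL among them.

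For SPL, too, the step from 4 to 6 SDs was the largest, at −0.62 ± 0.17 (SE) or 1.54-fold lower, and it held 52.3% of the fall. The steps from 0 to 1 SD and from 1 to 2 SDs held 20.1% and 18.8%, and that from 2 to 4 SDs 8.83%. Counted per day, the change was −0.24, −0.22, −0.05 and −0.31 over the 4 steps, with the first step resting on single arrays (leaving out replicate 1 at 0 SD gave −0.09, replicate 1 at 1 SD −0.12, and replicate 2 at 0 SD −0.39). In all, SPL changed from 0 to 6 SDs by −1.19 ± 0.17, or 2.28-fold lower, and 0.683% of the tested probe sets fell more over that interval. From 4 to 6 SDs, 6.03% fell more. SPL was brighter than the median of its array in 10 of 10 arrays, at the 54.5 to 75.5 percentile.

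**Figure D2:**
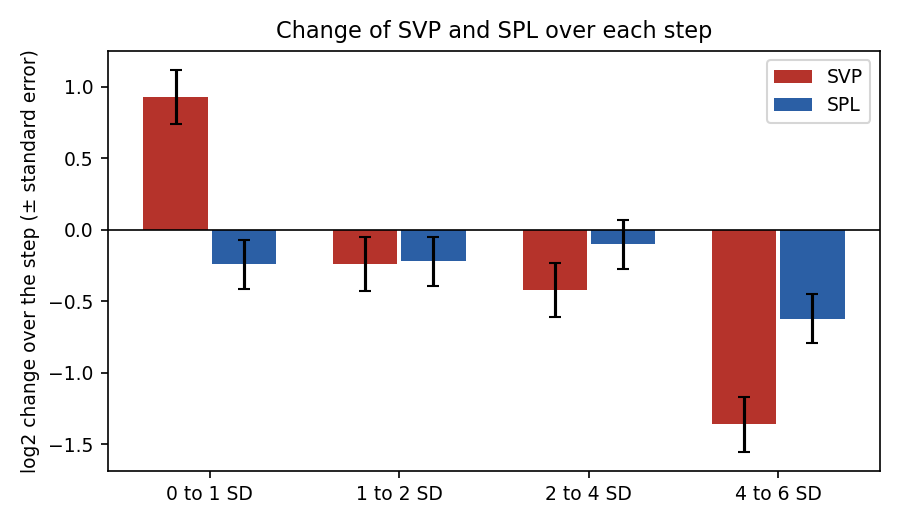
Change in log2 level over each of the 4 steps of the time course for SVP and SPL, as bars with the standard error of the linear model fit. Only SVP rises from 0 to 1 SD (0.93), and for both the largest change is that from 4 to 6 SDs (−1.36 for SVP and −0.62 for SPL).

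Set side by side, the 2 transcripts ended with falls of similar size from 0 SD but reached them by different paths. Relative to 0 SD, the change of SVP exceeded that of SPL by 1.17 at 1 SD, 1.15 at 2 SDs and 0.84 at 4 SDs, and by 0.10 at 6 SDs. From 4 to 6 SDs, SVP changed by 0.74 more in the downward direction. Pearson's r between them over the 10 arrays was 0.676, a description over arrays that share their time points, and SPL ranked 1523 among the tested probe sets by its likeness to SVP.

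A lower level at 6 SDs and a last step that was the largest were common on these arrays. Among all tested probe sets, 64.1% had a lower mean at 6 SDs than at 0 SD, in 35.9% both 6 SD arrays lay below both 0 SD arrays, and in 34.5% they lay below both 4 SD arrays. The largest drop of the time course came between 4 and 6 SDs in 39.1%. At 1 SD, 17.5% had both arrays above both 0 SD arrays and 9.63% had their highest mean. Both features of SVP together were found in 274 (1.35%), SVP included, which had both 1 SD arrays above and both 6 SD arrays below both 0 SD arrays. A limma test against 0 SD, with p-values adjusted by the Benjamini-Hochberg method, called 0.0687% of the tested probe sets at 4 SDs and 6.46% at 6 SDs; 0.491% were called between 4 and 6 SDs and 2.43% between 1 and 6 SDs. As these comparisons chose the 2 transcripts, nothing is read from these shares about them.

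The study had sorted its changed probe sets into clusters by profile on these same arrays, with SVP in cluster 9 (26 probe sets) and SPL in cluster 1 (63). Within cluster 9, SVP was among the less typical profiles. The other 25 had a median change of −0.03 from 0 to 1 SD and of −1.85 from 0 to 6 SDs, against 0.93 and −1.09 for SVP. Of the 26, 19 were bright enough to test. In 6 of the 26 (23.1%, against 1.35% of all tested probe sets), SVP among them, both 1 SD arrays lay above and both 6 SD arrays below both 0 SD arrays. The other 5 (named after their values were seen) were a transcript called INCOMPOSITA (Gma.12619.1.A1_at), a short-chain dehydrogenase/reductase (Gma.2230.1.A1_at), a mannitol dehydrogenase (GmaAffx.84424.1.S1_at) and 2 proteins of no stated function. SPL, in turn, was close to the middle of cluster 1, in which the other 62 changed by a median of −0.09 from 0 to 1 SD, −0.66 from 4 to 6 SDs and −1.03 from 0 to 6 SDs. In cluster 1, the mean was highest at 0 SD in 36 of 63 (29.1% of all tested probe sets) and was lower at every step in 22 (1.72% of all).

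**Figure D3:**
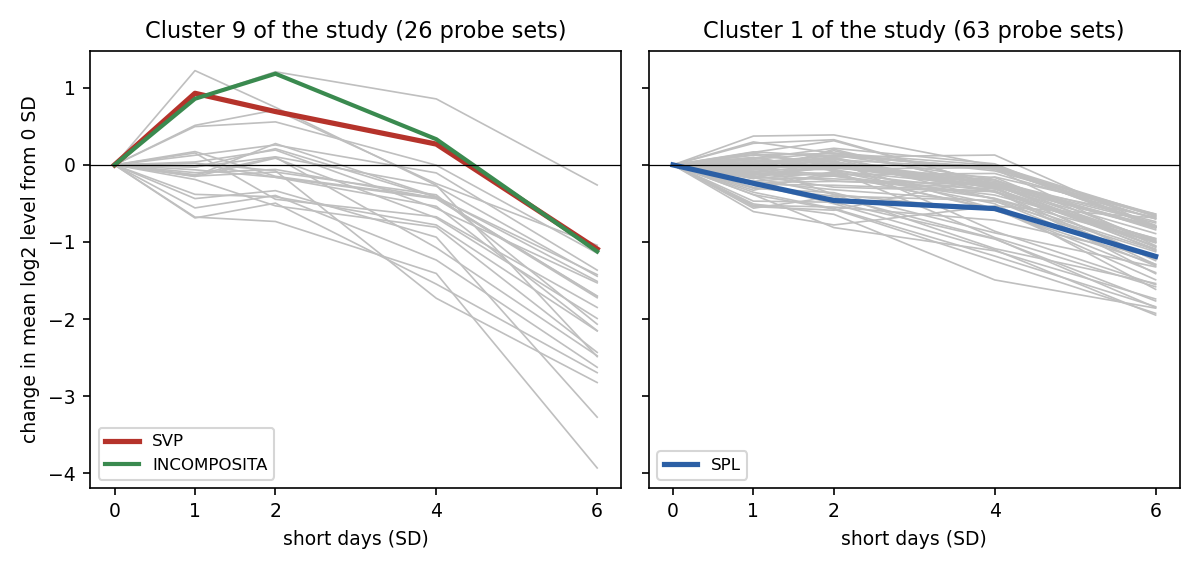
Change in mean log2 level from 0 SD against the number of short days for the 26 probe sets of cluster 9 (left) and the 63 of cluster 1 (right), each grey line being 1 probe set. SVP (red) and INCOMPOSITA (green) rise at 1 to 2 SDs above most of cluster 9, and SPL (blue) runs within the band of cluster 1 to −1.19.

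The 5 probe sets most like SVP by Pearson's r over the 10 arrays reached 0.946 to 0.964. The highest was Gma.13796.2.S1_at (r = 0.964), which carried no name here and changed by 0.45 from 0 to 1 SD and by −0.61 from 0 to 6 SDs. INCOMPOSITA was the third (r = 0.951). Gma.9956.1.S1_at (r = 0.950), also without a name, changed by 0.74 at 1 SD and −1.08 at 6 SDs, and was the second nearest of all tested probe sets to SVP by distance between centred means of the 5 time points. The others were an expressed protein of cluster 9 (GmaAffx.82256.1.S1_at, r = 0.960) and GmaAffx.60969.1.S1_at (r = 0.946). For SPL the 5 reached 0.956 to 0.979 and were led by glutamate dehydrogenase 1 (GDH1, GmaAffx.92966.1.S1_s_at), an enzyme of nitrogen metabolism, which changed by −1.29 from 0 to 6 SDs. With it came an auxin-responsive family protein, an F-box protein, the basic leucine zipper factor BZIP67 and an unnamed probe set. These rankings depended on the measure: of the 5, Spearman's rho kept 0 for SVP and 1 for SPL, and distance kept 1 and 0.

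The probe set labelled INCOMPOSITA had no match in the study's annotation, so whether it is a MADS-box gene was not settled here. Its label is that of an Antirrhinum MADS-box gene related to SVP. The probe set was highest at 1 to 2 SDs and lowest at 6 SDs. It was singled out by its profile on these arrays, in cluster 9 and among the 5 most like SVP. Its likeness to SVP is therefore only a description, and by distance between centred means it ranked 20. It read 8.90 and 8.71 at 0 SD, 9.69 and 9.64 at 1 SD, 9.96 and 10.01 at 2 SDs, 9.19 and 9.09 at 4 SDs, and 7.87 and 7.49 at 6 SDs. The arrays of the 5 time points did not overlap, and its mean at 2 SDs stood above that at 1 SD by 0.32 ± 0.15 (SE). Its changes relative to 0 SD were 0.86 at 1 SD, 1.18 at 2 SDs, 0.33 at 4 SDs and −1.12 at 6 SDs, beside 0.93, 0.69, 0.27 and −1.09 for SVP, so the 2 were farthest apart at 2 SDs. From 4 to 6 SDs it was 2.74-fold lower, against 2.57-fold for SVP. The study gave no Arabidopsis match for this probe set, so the name INCOMPOSITA is used only as a label. Its relation to SVP was not tested.

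The annotation gave 14 further MADS-box probe sets. The median difference of their 6 SD means from their 0 SD means was 3.54, and the lowest was 0.09, compared with −1.09 for SVP. The study had chosen 8 of the 14 for their change on these arrays, so this median does not describe the family. Of the 6 not on its list, 1 was bright enough to test. MADS28, among those 6, read 4.03 and 6.78 in the 2 arrays of 6 SDs. Of the 14, 8 were bright enough to test, but 6 of these 8 were above the array median in no array before 4 SDs and so entered the test only through the time points at which they were high, and the study had chosen 7 of the 8 on these arrays. Their counts are therefore given only as a description, and no direction of the family is read from them. The shares of all tested probe sets beside these counts are for either direction. Against 0 SD, 747 of the 1315 calls over all probe sets were upward at 6 SDs, and 8 of 14 at 4 SDs. Of the 8 MADS-box probe sets, 4 passed against 0 SD at 4 SDs (0.0687% of all tested probe sets) and 8 at 6 SDs (6.46%), in each case upward. From 4 to 6 SDs 2 passed (0.491% of all) and from 1 to 6 SDs 7 (2.43%). At 1 and 2 SDs, 0 of the 8 passed, where the test called 0.167% and 0.137% of all tested probe sets; FRUITFUL differed from 0 SD by 1.25 ± 0.26 (SE) at 2 SDs, with no overlap of the arrays (limma adjusted p = 0.186). The largest increases at 6 SDs were those of AP1 (7.39 ± 0.50, SE, limma adjusted p = 0.000662), AGL9, a SEPALLATA-type factor of floral organ identity (6.63), a MADS box protein M3 related transcript (6.56), and FRUITFUL (4.61 ± 0.26, adjusted p = 0.000321). The 1 not on the study's list, AGL3L, named after its values were seen, rose by 1.06 ± 0.22 (adjusted p = 0.0292), a call lost without any 1 of 7 arrays (adjusted p = 0.0515 to 0.153; 0.73 and 0.0786 without 6 SD replicate 2). With single arrays left out in turn, the count ranged from 5 (without 6 SD replicate 2, when fewer also passed the filter) to 8 at 6 SDs and from 2 (without either 0 SD array or either 1 SD array) to 6 (without 4 SD replicate 1) at 4 SDs.

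By the means, SVP was thus not yet below its starting level when AP1 and FRUITFUL were already high. AP1 read 4.80 and 4.97 at 0 SD, 8.33 and 10.17 at 4 SDs, and 11.95 and 12.60 at 6 SDs. FRUITFUL read 5.90 and 6.17 at 0 SD, 6.97 and 7.59 at 2 SDs, 9.43 and 10.11 at 4 SDs, and 10.53 and 10.75 at 6 SDs. In the same 4 SD arrays SVP read 7.13 and 7.00, and SPL read 8.61 and 8.28. The 4 SD means differed from those at 0 SD by 0.27 ± 0.19 (SE) for SVP, less than 2 SEs, and by −0.57 ± 0.17 for SPL.

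**Figure D4:**
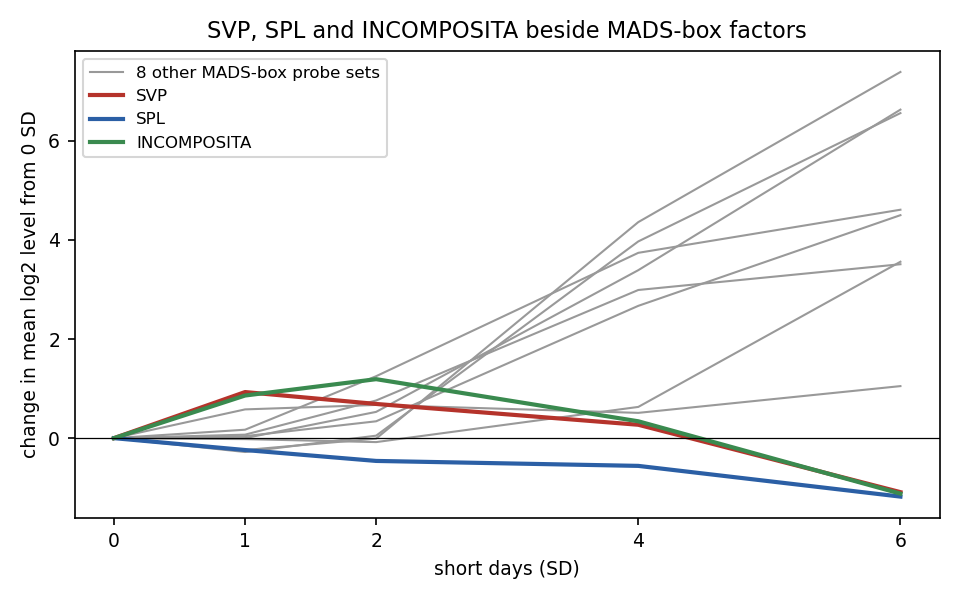
Change in mean log2 level from 0 SD against the number of short days for SVP (red), SPL (blue), the probe set labelled INCOMPOSITA (green, family not settled) and the 8 MADS-box probe sets other than SVP that were tested (grey). At 6 SDs the 3 coloured lines end between −1.09 and −1.19, whereas the grey lines end between 1.06 and 7.39.

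The probe set called INCOMPOSITA had no match in the study's annotation and was in none of the lists. No further SVP, AGL24, SPL or AP2-like repressor probe set was found by the words searched, so no count within these families was made. Of the FT and TFL1 family, which carries the flowering signal or counters it, MFT, BFT and FT1A were on the array and none was bright enough to test, with means of 3.71 to 4.36 at every time point. SHOOT MERISTEMLESS, which maintains the meristem, was read as a marker of the labelled tissue. Its 2 probe sets had means of 10.31 and 9.79 at 0 SD and rose at 6 SDs by 1.40 ± 0.21 (SE, limma adjusted p = 0.00959) and 1.41 ± 0.13 (adjusted p = 0.00166). Of 10 leaf marker probe sets (chlorophyll a/b-binding proteins and YABBY factors of lateral organs), 8 were tested at 6 SDs against 0 SD and 1 rose (LHCB4.3, by 1.26 ± 0.19, adjusted p = 0.00929) where 6.46% of all tested probe sets passed, 0 fell, and the median change was −0.11 beside −0.13 over all. The study had chosen LHCB4.3 and both SHOOT MERISTEMLESS probe sets for their change on these arrays, so their calls are only a description. Of the 7 tested leaf marker probe sets not on its list, 0 passed. The YABBY probe set LOC100500026, named after its values were seen, changed by −1.09 ± 0.31 (SE, limma adjusted p = 0.0708) and did not pass. SVP changed by −1.09 ± 0.19 over the same interval, with a smaller SE, and was not tested. The calls of the first SHOOT MERISTEMLESS probe set and of LHCB4.3 were lost without 0 SD replicate 1 (adjusted p = 0.0751 and 0.0686). The means of the 10 leaf marker probe sets ranged from 4.86 to 14.03 at 0 SD and from 5.06 to 13.88 at 6 SDs. The highest were CAB3 probe sets, with 14.03, 13.77 and 13.52 at 0 SD and 13.88, 13.70 and 13.37 at 6 SDs. These lay above both SHOOT MERISTEMLESS probe sets (11.71 and 11.20 at 6 SDs), in probe intensity and not transcript number. Whether leaf tissue was present was not tested. AP1, a marker of the floral meristem that was part of the 6 SD tissue, was at its highest where SVP and SPL were lowest. Only the 6 SD arrays held that tissue, so its part in these levels cannot be told apart from that of time.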

How the data were processed

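Log2 intensities were deposited, which the authors had obtained by Robust Multiarray Averaging (RMA: background correction, quantile normalization and a summary per probe set) from 10 Affymetrix Soybean GeneChip arrays, each hybridized with 3 μg of total RNA. The deposited table holds 37746 entries, namely 37593 soybean, 105 control and 48 rRNA probe sets. A soybean probe set was tested where it exceeded the soybean median of its array in at least 2 arrays (20366). A linear model with 1 mean per time point was fitted in limma 3.58.1 in R 4.3.3 (5 residual degrees of freedom), Benjamini-Hochberg adjustment ran over all tested probe sets, and the threshold was 0.05. A moderated F over the whole course used a cubic in the number of short days. All comparisons with 0 SD share its arrays, and 2 arrays per time point limit the precision; 2 arrays against 2 cannot pass 0.05 in an exact permutation test. The code was tested on simulated arrays.

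SVP and SPL and the gene lists were chosen with earlier results of these data known. Lists were found by words in the gene symbols (8677 probe sets with 1 symbol, 370 with several, 28546 with none) and in the study's annotation of 331 changed probe sets, without matches that only shared letters. Named are the 2 transcripts, up to 4 list members in each direction by their change at 6 SDs, the 5 probe sets most like each transcript, AP1, FRUITFUL and SHOOT MERISTEMLESS, and others marked as named after their values were seen. Alternatives were no filter, a common array median, quantile normalization, a robust prior with an intensity trend, time point as a factor, a replicate block, other measures of likeness and leaving out each array. A filter at the 25th percentile was added after seeing the data.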

Additional observations from a re-analysis of the deposited data

How the results depend on the processing

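The differences of SVP and of SPL from 0 SD, and of 6 SDs from 1 and 4 SDs, kept their direction under quantile normalization, a common median and with each array left out. Leaving out a single array could not reverse a difference between arrays that did not overlap. This held for all of these differences except that of SPL at 1 SD from 0 SD, so their direction with arrays left out was fixed in advance. Without 2 SD replicate 1, SVP at 2 SDs exceeded 0 SD by 0.43, and without replicate 2 by 0.96, compared with 0.69; SPL at 1 SD against 0 SD ranged from −0.39 to −0.09 (−0.24 with all arrays). The other differences moved by less than 1 standard deviation. The counts of probe sets called were less stable. Without the filter, 14 were called at 2 SDs against 0 SD (28 with it) and 202 between 4 and 6 SDs (100 with it); a filter at the 25th percentile gave 14 and 199. A common median gave 174 between 4 and 6 SDs. The intensity trend with a robust prior gave 53 at 1 SD (34 without). With the replicate block, 272 were called between 4 and 6 SDs; same-numbered arrays deviated together only in part (correlations of −0.368 to 0.618), so the numbers were not used as pairs, and the block moved no other count by over 1.5 times. The profile test called 875, or 366 with time point as a factor. Between 4 and 6 SDs 2 MADS-box probe sets were called, 4 of a larger tested set without the filter or with that at the 25th percentile, and 1 with the trend and robust prior. With single arrays left out, the counts against 0 SD ranged from 0 to 122 at 1 SD, 0 to 97 at 2 SDs, 4 to 37 at 4 SDs and 216 to 3801 at 6 SDs, those at 6 SDs from 0 to 2107 against 4 SDs and 18 to 2472 against 1 SD, the profile test from 371 to 2520, and the MADS-box counts from 2 to 6 at 4 SDs, 5 to 8 at 6 SDs and 0 to 5 between 4 and 6 SDs. The cause of these shifts was not tested. No alternative was run for the SVP and SPL lists, in which the words searched found no other probe set.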
